A study of Mus musculus with 4 samples.

Results

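Meningeal barrier and transporter genes were read here on spatial arrays of the injured mouse cortex. They are 9 genes, Ptgds, Slc6a13, Myoc, Slc22a6, Slc47a1, Slc13a4, Foxc1, Foxc2 and Alpl, of 32285 genes in the deposited files, of which 23415 had at least 1 unique molecular identifier (UMI, one captured transcript) over tissue. The genes were chosen on these data, by their levels from the tissue edge inward and in collagen-rich against collagen-free spots, so those values are given below as a description without a test.

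The meninges are the layered membranes that wrap the brain: the pia on its surface, the arachnoid outside it and the dura under the skull. Arachnoid cells seal the cerebrospinal fluid from the blood and carry transporters that clear solutes from it, and meningeal fibroblasts also enter injured cortex and lay down collagen there. Ptgds encodes the lipocalin-type prostaglandin D synthase, an enzyme secreted into the cerebrospinal fluid and made by arachnoid cells, choroid plexus and oligodendrocytes. Slc6a13 encodes the GABA and taurine transporter GAT2, Slc22a6 the organic anion transporter OAT1, Slc47a1 the multidrug and toxin extrusion protein MATE1, and Slc13a4 a sodium-coupled sulphate transporter. Foxc1 and Foxc2 encode forkhead transcription factors needed for the meninges and skull to form, Alpl encodes tissue-nonspecific alkaline phosphatase, and Myoc encodes myocilin, a secreted glycoprotein.

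Each of 4 capture areas, on which barcoded spots take up the messenger RNA of the several cells above them, held 2 brain slices, and each slice came from 1 mouse. All injured mice had received a photothrombotic (PT) lesion, in which light activates an injected dye and clots the cortical vessels. One area held a wild-type (WT) slice at rest and a WT slice at 2 days post-injury (dpi), one held 2 WT slices at 7 dpi, one held 2 WT slices at 21 dpi, and the last held 2 slices at 21 dpi of genotype Cthrc1(creER); R26(DTA). The last genotype, called deleter here, was designed to remove cells that express Cthrc1, and the study set these mice aside because it could detect no deletion. The methods give adult mice of both sexes and an age span for all experiments, but no age for a slice. The labels do not say which slice of the first area was at rest; it was taken from the outlines in the published picture. Rest and 2 dpi are 1 slice each, so their intervals cover counting error only.

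Slices held 827 to 1726 spots and 11332780 to 23677298 UMIs. The median per spot was 2633.5 UMIs at 2 dpi, where 375 spots held fewer than 1000, and 16158 at rest. Apart from rest and 2 dpi, time or genotype coincided with the capture area. Mouse sex moved with time as well: Xist stood at 1.06 and 0.948 UMIs per 10000 in the slices at 7 dpi and at 0.00229 and 0.000882 in the WT slices at 21 dpi. Deleter slice 1 held Xist at 0.803 and deleter slice 2 at 0.00802. The part of sex and capture area in the comparisons of time was not tested, and in the WT slices they cannot be told apart from time.

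An edge spot, or ring 1, had at least 1 neighbouring printed position off the tissue, and the interior was ring 4 and deeper. The 8 slices held 80 to 182 edge spots each, 848 in all. A fibrotic spot held at least 5 UMIs per 10000 of Col1a1, which encodes a chain of collagen I, and a Col1a1-free spot held 0. Slice 1 at 7 dpi is called torn along its lesion here, though no label records a tear. Of its 182 edge spots 76 were fibrotic, and those bordering the tear were not counted. The part of the tear in its levels was not tested. In the WT slices at 21 dpi some edge spots lined slits inside the tissue: 34 of 116 edge spots in slice 1 and 7 of 92 in slice 2 held at least 100 UMIs per 10000 of choroid plexus markers, against 0 in the other 6 slices.

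Promoter windows are shown for 4 of the genes. Slc6a13 and Slc22a6 had the most alike profiles, and Ptgds and Foxc1 were past the threshold in fibrotic tissue at 21 against 7 dpi. Each window runs from 250 bases before to 50 after a transcript start in the RefSeq table for GRCm38.p6, on the gene's own strand. Capitals mark CCAAT or its reverse complement ATTGG.
Ptgds, chr2:25469700-25469999, minus strand: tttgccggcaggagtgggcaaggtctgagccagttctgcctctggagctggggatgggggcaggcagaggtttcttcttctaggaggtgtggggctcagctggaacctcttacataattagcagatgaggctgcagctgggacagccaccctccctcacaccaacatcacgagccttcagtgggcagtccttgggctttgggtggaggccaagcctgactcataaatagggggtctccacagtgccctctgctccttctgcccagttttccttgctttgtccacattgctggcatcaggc
Slc6a13, chr6:121300038-121300337, plus strand: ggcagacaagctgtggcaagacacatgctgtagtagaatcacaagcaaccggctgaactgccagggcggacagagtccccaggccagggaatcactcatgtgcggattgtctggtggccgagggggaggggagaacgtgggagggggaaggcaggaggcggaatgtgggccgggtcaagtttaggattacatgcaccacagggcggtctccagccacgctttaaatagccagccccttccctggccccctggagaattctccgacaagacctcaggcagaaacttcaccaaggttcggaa
Slc22a6, chr19:8617746-8618045, plus strand: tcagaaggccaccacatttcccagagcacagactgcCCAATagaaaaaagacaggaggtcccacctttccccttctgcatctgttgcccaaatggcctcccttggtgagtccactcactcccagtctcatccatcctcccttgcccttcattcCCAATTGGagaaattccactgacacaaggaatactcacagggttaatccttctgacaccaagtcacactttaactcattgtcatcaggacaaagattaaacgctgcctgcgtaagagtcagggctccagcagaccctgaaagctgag
Foxc1, chr13:31806396-31806695, plus strand: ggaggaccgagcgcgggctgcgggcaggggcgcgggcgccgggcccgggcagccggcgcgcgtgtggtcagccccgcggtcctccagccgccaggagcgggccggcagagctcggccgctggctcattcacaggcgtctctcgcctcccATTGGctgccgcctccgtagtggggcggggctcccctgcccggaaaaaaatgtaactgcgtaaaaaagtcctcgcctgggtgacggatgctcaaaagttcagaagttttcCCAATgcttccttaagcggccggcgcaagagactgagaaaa

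Of the 9 genes, 7 had a window in the table, with 10 windows in all. CCAAT, searched on both strands, was in 6 of the 10 windows, from 5 genes, and in 37.4% of 32851 promoters. Slc6a13 had 3 windows, of which the one shown holds no match and the other two do. In Slc22a6 the 2 strands' matches overlap in CCAATTGG. TATAAA was in 2 windows, 1 each of Myoc and Alpl, and in 13.6% of all promoters. The forkhead motif TGTTTAC was in none of the 10 windows, and in 3.65% of all promoters.

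All 9 genes were concentrated at the tissue edge. A spot holds several cells, so more cells of a type and more RNA per cell cannot be told apart here. Ring 1 held 6.31% of all UMIs over the 8 slices, but 19.0% of those of Foxc1, 22.3% of Ptgds, 24.8% of Slc47a1, 30.4% of Slc6a13 and 36.3% of Myoc. The genes lie apart in the genome: Ptgds at chr2:25466709-25470046, Foxc1 at chr13:31806633-31812476, Foxc2 at chr8:121116171-121118895, Slc47a1 at chr11:61343401-61378345, Slc22a6 at chr19:8618039-8628299, Alpl at chr4:137741733-137796384 and Myoc at chr1:162639155-162649693. Slc6a13 at chr6:121300227-121337733 and Slc13a4 at chr6:35267957-35308131 share a chromosome (GRCm38, GENCODE gene spans, exons and introns together).

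Ptgds, the prostaglandin D synthase, stood in edge spots at 107 UMIs per 10000 at rest, 35.5 at 2 dpi, 12.5 and 57.4 at 7 dpi, 64.9 and 74.5 at 21 dpi, and 162 and 136 in the deleter slices. In the interior it stood at 4.99 at rest, 6.39 at 2 dpi, 9.13 and 6.05 at 7 dpi, 22.4 and 23.3 at 21 dpi, and 22.6 and 19.5 in the deleter slices. The edge level was above the interior level in 8 of 8 slices, with a median ratio of 6.27 and a range from 1.37 in slice 1 at 7 dpi to 21.5 at rest.

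The 4 solute carriers were also highest in ring 1 in most slices. Slc6a13, the GABA and taurine transporter, had edge levels of 0.982 at rest, 0.722 at 2 dpi, 0.137 and 0.439 at 7 dpi, 0.338 and 0.460 at 21 dpi, and 1.03 and 1.04 in the deleter slices. Rest and both deleter slices were highest and the torn slice at 7 dpi lowest. Slc22a6, the organic anion transporter, followed the same order at its extremes, with 0.586 at rest, 0.286 at 2 dpi, 0.0773 and 0.286 at 7 dpi, 0.225 and 0.140 at 21 dpi, and 0.484 and 0.353 in the deleter slices. The ratio of edge to interior had a median of 10.0 for Slc6a13 and 14.7 for Slc22a6 and was above 1 in 8 of 8 slices for both.

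Slc47a1, the extrusion transporter, had another order. Its edge levels were 0.513 at rest, 0.120 at 2 dpi, 0.0238 and 0.420 at 7 dpi, 0.646 and 0.434 at 21 dpi, and 1.44 and 1.02 in the deleter slices. In the interior it stood at 0.00298 at rest, 0.00372 at 2 dpi, 0.00196 and 0.00876 at 7 dpi, 0.0645 and 0.115 at 21 dpi, and 0.150 and 0.0974 in the deleter slices. Every interior level at 21 dpi was above every earlier one. Slc13a4, the sulphate transporter, had edge levels of 0.748 at rest, 0.331 at 2 dpi, 0.166 and 0.544 at 7 dpi, 1.42 and 0.600 at 21 dpi, and 1.14 and 0.961 in the deleter slices. Its highest level, in WT slice 1 at 21 dpi, was 0.621 without the 34 choroid-marker-rich edge spots.

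Among the 9 genes, the edge level of Foxc1 spanned the narrowest range between slices, as highest over lowest. It was 0.674 at rest, 0.617 at 2 dpi, 0.339 and 0.869 at 7 dpi, 0.752 and 0.843 at 21 dpi, and 1.22 and 1.12 in the deleter slices. Foxc2 stood at 0.205 at rest, 0.135 at 2 dpi, 0.101 and 0.353 at 7 dpi, 0.383 and 0.281 at 21 dpi, and 0.528 and 0.718 in the deleter slices. Both were lowest in the torn slice at 7 dpi and highest in the deleter slices. The median edge-to-interior ratio was 4.86 for Foxc1 and 11.4 for Foxc2.

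Alpl and Myoc differed from the others at the ends of the range. Alpl, the alkaline phosphatase, had edge levels of 0.279 at rest and 0.181 at 2 dpi, then 0.0476 and 1.29 at 7 dpi, 1.23 and 0.830 at 21 dpi, and 0.866 and 1.04 in the deleter slices. The intact slice at 7 dpi and all slices at 21 dpi thus stood above rest, as they did for Foxc1 and Foxc2. Myoc stood at 2.10 at rest, 0.316 at 2 dpi, 0.464 and 2.45 at 7 dpi, 0.939 and 1.24 at 21 dpi, and 2.55 and 2.21 in the deleter slices. The edge-to-interior ratio was below 1 in 1 slice only, the torn one at 7 dpi, for Alpl (0.480) and Slc13a4 (0.947); the other 7 genes were above 1 in all 8 slices.

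**Figure D1:**
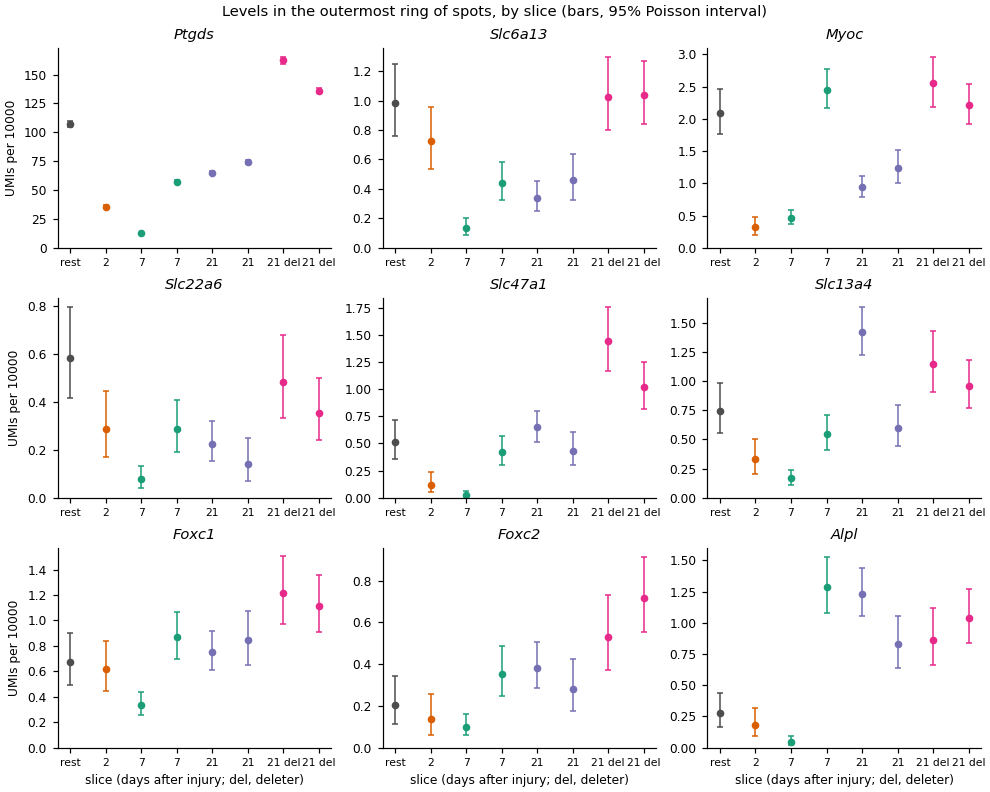
Level of each gene in edge spots (ring 1) by slice, in UMIs per 10000, with exact 95% Poisson intervals that cover counting error only. Ptgds, Slc6a13, Slc22a6, Slc47a1, Slc13a4, Foxc1, Foxc2 and Alpl are lowest in slice 1 at 7 dpi, the slice called torn here. Myoc is lowest at 2 dpi.

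The fall from the edge inward was steep at rest. There Ptgds went from 107 in ring 1 to 13.1 in ring 2, 16.0 in ring 3, 5.03 in rings 4 to 6 and 4.97 deeper. In the WT slices at 21 dpi it went from 64.9 and 74.5 in ring 1 to 50.4 and 33.9 in ring 2, 33.5 and 36.0 in rings 4 to 6, and 13.9 and 12.9 deeper. The band of high Ptgds was thus wider at 21 dpi than at rest. Slc47a1 likewise stood at 0.0332 in ring 2 at rest against 0.615 and 0.477 in ring 2 at 21 dpi. Col1a1 in the same ring stood at 0.0332 at rest and at 9.11 and 33.7 at 21 dpi.

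**Figure D2:**
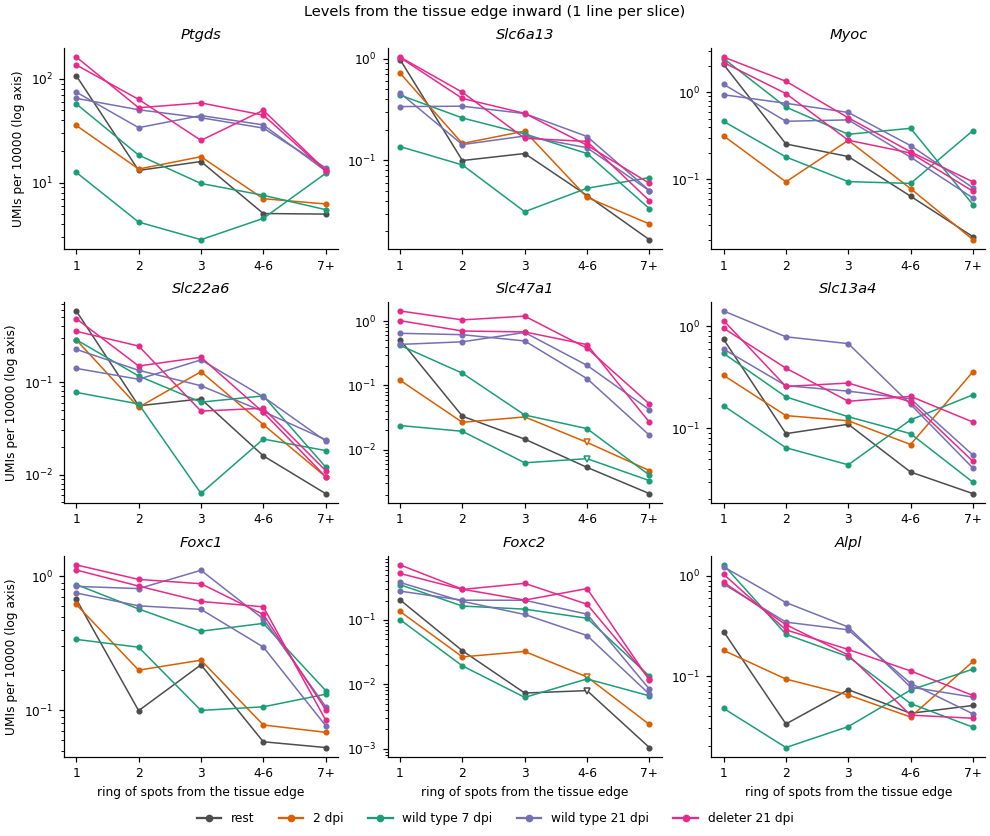
Level of each gene against the ring of spots counted inward from the tissue edge, on a log axis in UMIs per 10000, 1 line per slice. An open triangle marks a level of 0, drawn at the value 3 UMIs would give; levels fall from ring 1 inward in most slices, and for Ptgds least steeply in slice 1 at 7 dpi.

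Between rest and 2 dpi, 5 of the 9 genes stood lower at the edge beyond counting error and 0 higher. Among 11006 genes with at least 10 UMIs in these spots, the interval lay below 1 for 5.42% and above 1 for 12.6%. The ratio of 2 dpi to rest was 0.331 for Ptgds (95% interval 0.316 to 0.347), 0.151 for Myoc (0.0905 to 0.239), 0.235 for Slc47a1 (0.0940 to 0.515), 0.443 for Slc13a4 (0.256 to 0.743) and 0.488 for Slc22a6 (0.267 to 0.862). The intervals of Slc6a13, Foxc1, Foxc2 and Alpl included 1, with ratios of 0.736, 0.915, 0.660 and 0.648. With 1 slice each there is no replicate check, and these ratios compare the slices, not the conditions.

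Other genes of the same functions, from lists of related genes, were also tested at the edge. The lists were picked with earlier results of these data known, so their counts are a description and not independent support. Over all genes tested, 13.4% were higher and 11.3% lower in edge than in interior spots across the 8 slices (edgeR's quasi-likelihood test, slice as a block, Benjamini-Hochberg adjusted p under 0.05). Of 12 other solute transporters, 11 were higher, with a median log2 fold change of 2.03 against -0.01 over all genes. They included the organic cation transporter Slc22a2 (4.01), the betaine and GABA transporter Slc6a12 (3.44) and the sulphate transporter Slc26a2 (2.71, SE 0.31, adjusted p = 0.0001). In WT edge spots at 7 and 21 dpi, Slc22a2 stood at only 0.0238 to 0.0383 and Slc6a12 at 0.0297 to 0.102. With interior levels lower still, both could pass the filter on low counts through edge spots alone. Slc22a2 and Slc6a12 are thus given without a test, though the counts of higher genes include them. Among 11 tested relatives in the genes' own families 5 were higher, led by Slc6a12, the forkhead gene Foxd1 (3.28, SE 0.24, adjusted p = 4e-06) and the organic anion transporter Slc22a8 (2.20, SE 0.32, adjusted p = 0.00054).

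Of 7 tested genes of prostaglandin synthesis and reception, 4 were higher at the edge. The prostaglandin D receptor Ptgdr led (log2 fold change 3.22, SE 0.38, adjusted p = 0.00012 by edgeR), followed by the prostaglandin E synthase Ptges (1.58, SE 0.23, adjusted p = 0.00046) and the phospholipase Pla2g4a (0.80, SE 0.18, adjusted p = 0.0067). Of 6 meningeal transcription factors, Foxd1, Twist1 (2.88), Tbx18 (2.67) and Zic1 (2.51) were higher.

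Markers of every meningeal layer were higher at the edge too: 3 of 3 tested for pial fibroblasts, 3 of 3 for arachnoid fibroblasts, 3 of 4 for arachnoid barrier cells and 4 of 4 for dural fibroblasts. Cdh1, an adhesion protein of the arachnoid barrier, led its list at 4.46, while Cldn11, a tight junction gene that oligodendrocytes also express, was lower (-0.57). Cdh1 stood at only 0.0713 to 0.158 in WT edge spots at 7 and 21 dpi. It could pass the filter on low counts through edge spots alone, so it too is given without a test, though the count includes it. Of 7 mural cell markers 7 were higher, of 6 oligodendrocyte markers 6 were lower, and of 5 choroid plexus markers 0 passed. Counting the array frame as an edge left 462 genes called in place of 3380.

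The 9 genes had similar profiles, but most had different closest genes. Likeness was measured as Pearson's r of log2(UMIs per 10000 + 0.1) over 40 points, 8 slices by 5 ring bins, among 14151 genes with at least 200 UMIs; points of 1 slice share its library and depth, so r is a description. Between the 9 genes r ran from 0.73 for Slc22a6 with Slc47a1 to 0.95 for Slc6a13 with Slc22a6. Ring levels had chosen these genes. Slc6a13 and Slc22a6 were each other's closest gene (r = 0.95), and both had Slc22a8 and Slc7a11, the cystine transporter, next. Slc47a1 was closest to the amino acid transporter Slc38a2 (0.97), the transcription cofactor Eya2 (0.97) and the matrix gene Smoc1 (0.96).

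Foxc1 was closest to the transcription factors Tbx18 and Foxd1 and to thrombomodulin, Thbd (each 0.96). Foxc2 was closest to Egfr, Ogn and Olfml2a (each 0.95), Slc13a4 to the amino acid transporter Slc6a20a (0.94), Bmp6 (0.92) and Tgfbr3 (0.92), and Alpl to the collagen gene Col8a2, Kirrel and the cartilage matrix gene Comp (each 0.92). Myoc was closest to Vtn (0.93), which pericytes express, Itm2a (0.91) and Fmo1 (0.90). Ptgds was closest to Asgr1 (0.94), Slc38a2 (0.91) and Efemp1 (0.91). With Col1a1 its r was 0.63.

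Within ring 1, spots that held one gene more often held another. Of 232 edge spots with a Slc6a13 UMI, 71.1% had a Myoc UMI, against 23.4% of the other edge spots. Of 199 with Slc47a1, 48.2% had Foxc2, against 10.9% of the others. Of 146 with Slc22a6, 61.0% had Slc13a4, against 22.6%. Spots are not replicates, and spots with more UMIs hold more of every gene, so these shares are a description.

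In fibrotic spots, Ptgds, Slc47a1 and Foxc1 were higher at 21 than at 7 dpi. Levels in fibrotic spots helped choose the genes, though not by time, so the p-values here are not free of that choice. Ptgds stood at 13.9 and 18.6 UMIs per 10000 at 7 dpi and at 93.8 and 56.8 in WT slices at 21 dpi, a log2 fold change of 2.22 (SE 0.24, adjusted p = 0.0016 by edgeR over all genes). Slc47a1 stood at 0.0472 and 0.146 at 7 dpi and at 1.34 and 0.645 at 21 dpi, a log2 fold change of 3.02 (SE 0.41, adjusted p = 0.0036). Foxc1 stood at 0.850 and 0.753 at 7 dpi and at 1.47 and 1.29 at 21 dpi, a log2 fold change of 0.80 (SE 0.18, adjusted p = 0.034). Of 12911 genes tested 2.3% were higher and 1.6% lower. The 2 slices at 21 dpi lay above the 2 at 7 dpi for 7 of the 9 genes, these 3 and Slc6a13, Slc13a4, Foxc2 and Alpl. With 2 slices a group this was common: of 15140 genes with at least 10 UMIs, 23.4% did not overlap with 21 dpi higher and 23.6% with 21 dpi lower.

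The call of Foxc1 was the least firm: its adjusted p was 0.095 by DESeq2, 0.12 with a Col1a1 minimum of 2, and it passed in 1 of 4 fits that left out a slice, while Ptgds and Slc47a1 passed in 4 of 4. The deleter slices, which the fit did not use, stood at 110 and 89.7 for Ptgds, 1.49 and 0.997 for Slc47a1 and 1.42 and 1.20 for Foxc1, each above both slices at 7 dpi. Slc6a13, Myoc, Slc13a4 and Foxc2, which did not pass, also stood above both slices at 7 dpi there. The share of all genes that lay so is not given, so both statements on the deleter slices are a description and no check of the fit.

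The other 6 genes did not pass. Slc13a4 stood at 0.213 and 0.232 at 7 dpi and 0.554 and 0.350 at 21 dpi (log2 fold change 0.99, SE 0.26, adjusted p = 0.068 by edgeR), and Foxc2 at 0.177 and 0.237 against 0.483 and 0.315 (0.86, SE 0.26, adjusted p = 0.12). Alpl stood at 0.0472 and 0.373 against 1.01 and 0.421 (1.38, SE 0.51, adjusted p = 0.20), where the slices within a time differed more than for other genes. Slc6a13 and Slc22a6 had log2 fold changes of 0.65 each (SE 0.32 and 0.35), and Myoc of 0.04 (SE 0.36).

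**Figure D3:**
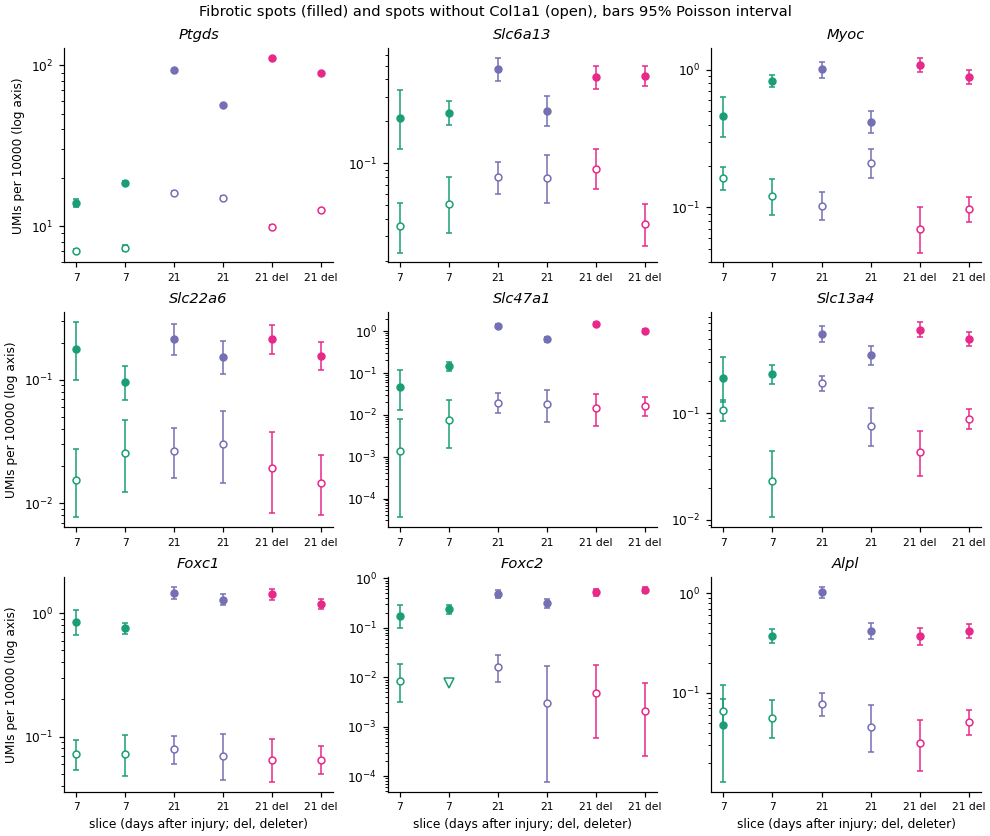
Level of each gene in fibrotic spots (at least 5 Col1a1 UMIs per 10000) and in Col1a1-free spots by slice, in UMIs per 10000 on a log axis, with exact 95% Poisson intervals. In fibrotic spots Ptgds, Slc47a1, Foxc1, Foxc2, Slc6a13 and Slc13a4 lie higher in the 4 slices at 21 dpi than in the 2 at 7 dpi. For Slc6a13 the gap is small, 0.238 in WT slice 2 at 21 dpi against 0.230 in slice 2 at 7 dpi. The share of all genes that lie so is not given. Rest has 3 fibrotic spots.

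In fibrotic edge spots Ptgds stood at 21.8 and 70.0 at 7 dpi and at 117 and 72.1 in the WT slices at 21 dpi. Slice 2 at 7 dpi thus lay close to WT slice 2 at 21 dpi there. Edge spots were 76 of 112 and 69 of 392 fibrotic spots at 7 dpi, and 57 of 170 and 47 of 203 in WT at 21 dpi. The levels over all fibrotic spots thus mix unlike shares of edge spots. Away from the tissue edge, where the difference was seen, 1 slice at 7 dpi had fibrotic spots. In its 235 interior fibrotic spots Ptgds stood at 3.52, below the 7.02 of the interior Col1a1-free spots of that slice. In the WT slices at 21 dpi it stood at 89.4 and 48.6 in interior fibrotic spots against 14.1 and 10.2 in interior Col1a1-free spots. The deleter slices had 95.5 and 72.6 against 8.70 and 12.5. Interior fibrotic Slc47a1 was 0.0242 at 7 dpi, 0.456 and 0.339 at 21 dpi, and 0.959 and 0.683 in the deleter slices. Foxc1 in the same spots was 0.612, then 1.12 and 0.897, then 1.24 and 1.02, which left its adjusted p at 0.20 (edgeR, 1 slice against 2).

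The ratio of fibrotic to Col1a1-free level is given by time as a description, since levels in these spots chose the genes. For Ptgds it was 1.97 and 2.54 at 7 dpi, 5.81 and 3.82 in the WT slices at 21 dpi, and 11.2 and 7.16 in the deleter slices. The fitted difference between the WT times (edgeR, interaction of fibrotic state and time) was a log2 value of 1.07 for Ptgds (SE 0.22), 1.44 for Slc47a1 (SE 0.88), 1.76 for Alpl (SE 0.67) and 0.73 for Foxc1 (SE 0.25). Over all 14146 genes in that fit, 3.2% had a larger ratio at 21 dpi and 0.82% a smaller one.

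Among fibrotic spots, Ptgds did not simply follow Col1a1, and the direction differed between genes. In WT slices at 21 dpi Ptgds stood at 74.5 and 89.9 in spots with 5 to 10 Col1a1 UMIs per 10000, and at 81.1 and 29.0 in those with at least 4 times the minimum. Foxc1 went from 0.886 and 0.594 to 2.03 and 1.95 between the same bins, and Slc47a1 from 0.438 and 0.232 to 2.24 and 0.989. Over all spots with at least 10 Col1a1 UMIs per 10000, Ptgds stood at 107 and 36.7 in these slices. In slice 1 the spots between the 2 bins thus held more Ptgds than either bin. Just below the minimum, in spots down to 0.5 times it, Ptgds stood at 4.21 and 12.0 at 7 dpi and 40.2 and 39.4 at 21 dpi; just above, with up to double, it stood at 23.9 and 13.6 at 7 dpi.

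Over 7 and 21 dpi, deleter slices included, fibrotic spots differed from Col1a1-free spots in many genes, with 34.9% higher and 33.9% lower. Against that background 9 of 10 tested solute transporters were higher (median log2 fold change 1.70 against 0.01 over all genes), as were 6 of 6 meningeal transcription factors (median 3.74) and 5 of 7 prostaglandin genes, led by Ptgdr (6.59), Ptges (3.09) and the haematopoietic prostaglandin D synthase Hpgds (2.83). Among 10 tested family relatives 7 were higher, led by Foxd1 (5.32). The GABA transporter Slc6a11 (-1.75) and the citrate transporter Slc13a5 (-0.97) were lower. Here too the lists were picked with earlier results known, so these counts are a description.

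From 7 to 21 dpi, 4 of 10 tested transporters rose in fibrotic spots: Slc38a2 (log2 fold change 1.52, SE 0.22), Slc6a20a (1.40, SE 0.31), Slc23a2 (1.26, SE 0.22) and Slc26a2 (1.18, SE 0.26). Ptgdr (1.98, SE 0.23, adjusted p = 0.0017 by edgeR) and Ptges (1.32, SE 0.24, adjusted p = 0.014) rose among 7 prostaglandin genes, and Foxd1 (1.33) and Tbx18 (0.87) among 6 transcription factors. Of 5 general fibroblast genes 2 rose, Dcn (1.54) and Lum (1.22), and of 4 dural fibroblast markers 1 rose, Mgp (1.49). Of 3 arachnoid fibroblast markers 1 fell, Angptl2 (-1.23), and of 7 mural cell markers 2 fell, the contractile genes Acta2 (-1.17) and Tagln (-1.11). The study also lists Acta2 among the markers of its matrix-depositing myofibroblasts at 7 dpi. Which cells account for the fall was not tested. Of 3 pial fibroblast and 4 arachnoid barrier cell markers 0 passed. Of 3 ependymal markers Foxj1 (2.09) and Rarres2 (1.74) rose, as did 2 of 4 astrocyte markers; the part of these other cell types in the members' levels was not tested. Of 6 oligodendrocyte markers 0 passed, with a median of 1.01, and of 5 choroid plexus markers 0 passed, with a median of 1.28.

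**Figure D4:**
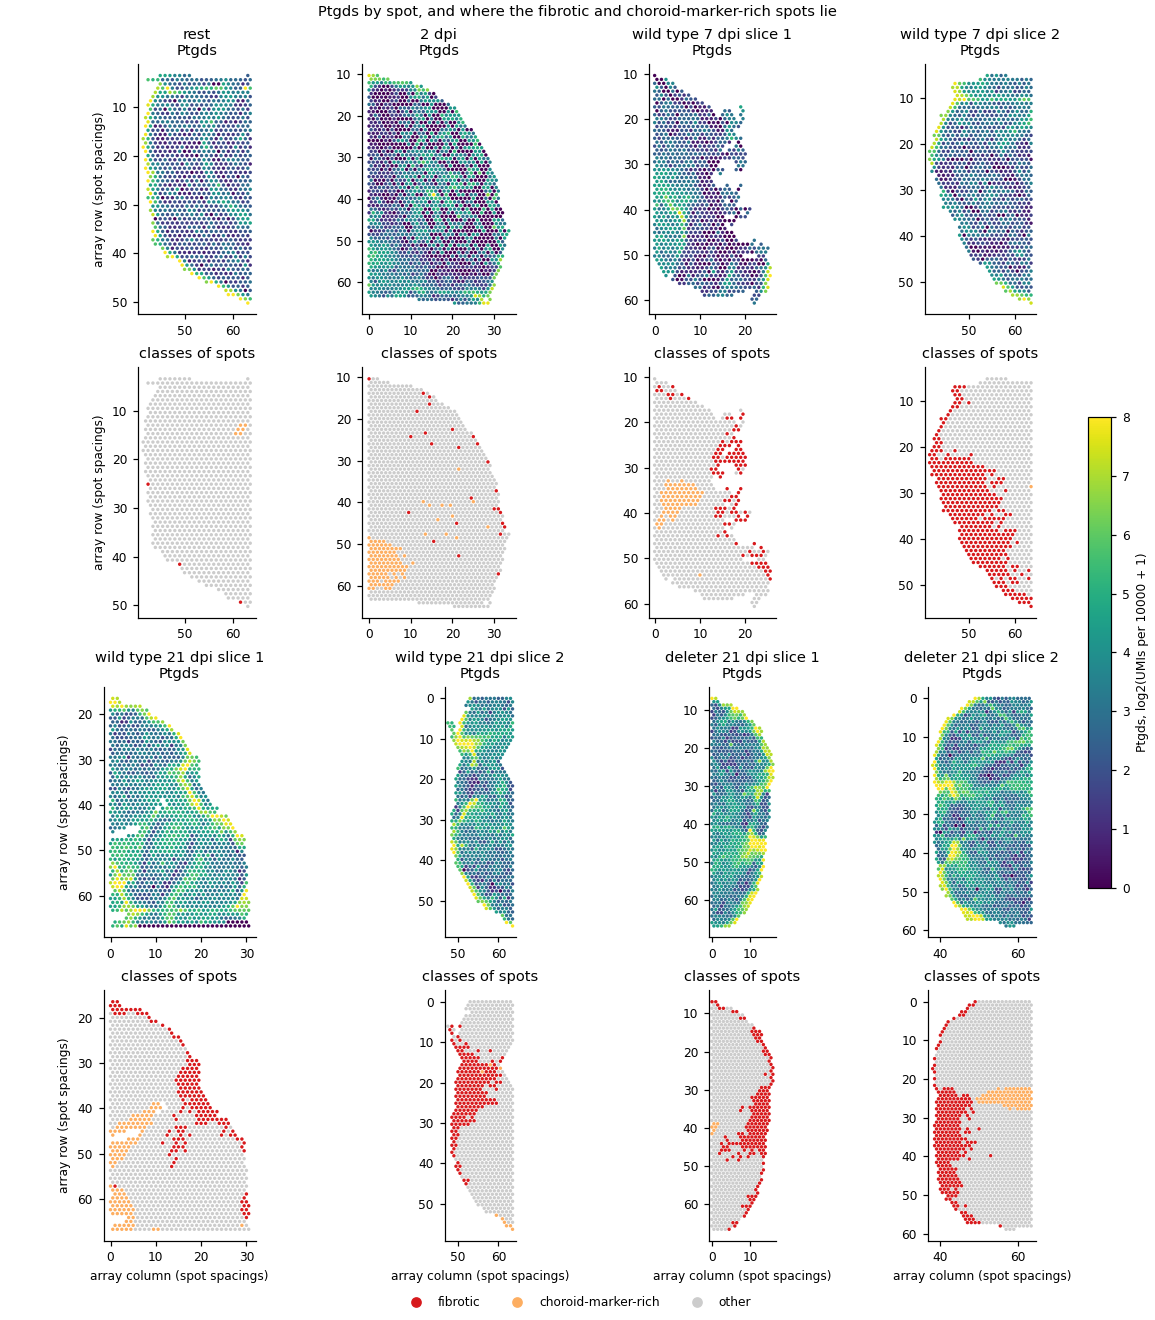
Ptgds by spot, as log2(UMIs per 10000 + 1) in colour, above a map of fibrotic spots, choroid-marker-rich spots and all others for the same slice; axes are array positions in spot spacings. A spot of both classes is drawn as fibrotic. The fibrotic patch of slice 2 at 7 dpi is dark for Ptgds, and fibrotic patches at 21 dpi are brighter.

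At the edge itself, 0 of the 9 genes passed between 7 and 21 dpi by edgeR or DESeq2, where 0.514% of 11674 genes were higher and 0.0257% lower. At an unadjusted p under 0.05, 1 gene passed, Slc13a4, with a log2 fold change of 1.65 (SE 0.62, adjusted p = 0.40); its level in WT slice 1 at 21 dpi was 1.42 with and 0.621 without choroid-marker-rich spots. The others ranged from -0.36 for Myoc to 1.48 for Slc47a1, and Ptgds was at 1.05 (SE 0.61, adjusted p = 0.60). The 2 slices at 7 dpi were far apart, 12.5 against 57.4 for Ptgds. On simulated data this fit recovered 20% of 2-fold and 92% of 4-fold changes, with a dispersion of 0.05 against 0.0644 in the data. Changes of 2-fold could thus seldom be detected. With a slice left out, which leaves 1 slice at a time, the Ptgds value ran from 0.324 to 2.55. That of Slc13a4 ran from 0.831 to 2.71.

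Deleter edges stood above WT edges at 21 dpi for 4 of the 9 genes. Levels in edge spots helped choose the genes, though not by genotype, so the p-values here are not free of that choice. The log2 fold change was 1.39 for Slc6a13 (SE 0.25, adjusted p = 0.0053 by edgeR), 1.13 for Myoc (SE 0.22, adjusted p = 0.0083), 1.09 for Ptgds (SE 0.21, adjusted p = 0.0087) and 1.13 for Slc47a1 (SE 0.27, adjusted p = 0.030). Of 10515 genes 0.666% were higher and 2.23% lower. The 2 deleter slices lay above the 2 WT slices for 7 of the 9 genes, these 4 and Slc22a6, Foxc1 and Foxc2. Of 13795 genes with at least 10 UMIs, 21.2% did not overlap with deleter higher and 22.9% with deleter lower. Slc22a6 (1.10, SE 0.35, adjusted p = 0.12), Foxc2 (0.87, SE 0.29, adjusted p = 0.14) and Foxc1 (0.54, SE 0.22, adjusted p = 0.25) did not pass, nor did Slc13a4 (-0.0034) and Alpl (-0.14).

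These calls rest on what is counted as an edge. With the array frame as an edge, 0 of 9 passed, and Ptgds was at 0.58 (adjusted p = 0.47 by edgeR). With off-tissue gaps of under 100 positions not counted, 0 of 9 passed and Ptgds was at 0.55 (adjusted p = 0.47). Without choroid-marker-rich spots 3 passed, and Slc47a1 fell to 0.63 (adjusted p = 0.50 by edgeR). Calls over all genes fell in each of these settings too, as counted in the last section. The loss of calls is thus not particular to these genes. Beside the rise, 4 of 5 choroid plexus markers were lower in deleter edges, Ttr by -6.79, as were 3 of 3 ependymal markers and 6 of 6 oligodendrocyte markers (median -2.28), and summed oligodendrocyte markers stood at 59.4 and 104 in WT against 18.2 and 16.6 in deleter edges. The part of these cell types in the result was not tested, and genotype and capture area cannot be told apart. Mouse sex differed too. Xist stood at 0.803 in deleter slice 1, against 0.00802 in deleter slice 2 and 0.00229 and 0.000882 in the WT slices. The part of sex was not tested. Of 10 other solute transporters 3 were higher in deleter edges: Slc7a11 (1.15), Slc26a2 (1.04) and Slc38a2 (0.93).

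Spots rich in markers of the choroid plexus, the tissue in the ventricles that makes cerebrospinal fluid, were a further site of Slc13a4. In choroid-marker-rich spots Slc13a4 stood at 0.375 at rest, 1.36 at 2 dpi, 0.809 and 0.548 at 7 dpi, 1.88 and 0.392 at 21 dpi, and 0.545 and 0.869 in the deleter slices. It was above the rest of its slice in 8 of 8 slices, with a median ratio of 6.17 and a range of 2.39 to 18.3. Alpl was above in 6 of 8 (median ratio 2.97) and Ptgds in 4 of 8 (1.12). Slc22a6, Slc47a1, Foxc2 and Slc6a13 had median ratios of 0, 0.157, 0.336 and 0.520. The 100 UMIs that define these spots were chosen after values were seen, and 2 of these slices had only 6 such spots and 1 had 1.

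Interior levels of 3 genes moved when choroid-marker-rich spots were left out. Between rest and 2 dpi interior Slc13a4 had a ratio of 11.1 (95% interval 7.84 to 16.1) with all spots, and 1.87 (1.14 to 3.08) without choroid-marker-rich spots, of which there were 6 at rest and 113 at 2 dpi. Interior Alpl went from a ratio of 2.44 (1.79 to 3.34) to 0.559 (0.331 to 0.914), and interior Ptgds from 1.28 (1.24 to 1.33) to 0.867 (0.833 to 0.902).

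Inside the brain, away from fibrosis, Ptgds was higher where myelin genes were. Among interior Col1a1-free spots, the 25% of spots with most myelin gene UMIs held 9.58 to 28.3 Ptgds UMIs per 10000 (median 14.3) and the 25% with fewest 1.56 to 9.25 (median 4.78). Myelin-rich spots were higher in 8 of 8 slices, with a log2 fold change of 1.92 (SE 0.22, adjusted p = 1.4e-05 by edgeR), where 24.3% of 10802 genes were higher and 21.9% lower. Choroid plexus, ependymal and astrocyte markers moved with it: Ttr was higher in myelin-rich spots in 7 of 8 slices (median 15.6 against 3.32), and 2 of 3 tested choroid plexus, 2 of 2 ependymal and 4 of 4 astrocyte markers were higher. Without choroid-marker-rich spots the Ptgds value was 1.94 (SE 0.20, adjusted p = 3.6e-06 by edgeR). The part of ependymal and astrocyte markers was not tested. The other 8 genes were too low in these spots to be tested.

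Between the 25% of the same spots richest and the 25% poorest in endothelial markers, Ptgds differed by a log2 fold change of 0.62 (SE 0.098, adjusted p = 0.00027 by edgeR). It was higher in rich spots in 8 of 8 slices, where 9.05% of 10411 genes were higher and 5.99% lower. Foxc1 stood at 0.0858 to 0.168 in rich and 0.0153 to 0.0924 in poor spots and was higher in rich spots in 8 of 8 slices. It could pass the filter on low counts through the rich spots alone, so it is given without a test. All 6 oligodendrocyte markers were also higher in endothelium-rich spots. Alpl, which brain endothelium expresses, was too low to be tested, at a median of 0.0559 in rich and 0.0341 in poor spots, as were the other 6 genes.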

How the data were processed

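The authors aligned the reads to mm10 with Space Ranger 2.0.0; the deposited UMI counts are raw, by gene and spot, with spot positions (other numbers, of which array rows, columns and the tissue flag were used). Spots marked as tissue were joined into 2 connected pieces per area, each taken as 1 slice and 1 mouse. Levels are UMIs per 10000 over the summed spots, with exact 95% Poisson intervals for counting error.

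UMIs summed per slice were tested with edgeR 4.0.16 (R 4.3.3; TMM, filterByExpr, quasi-likelihood F test, Benjamini-Hochberg over all genes tested, threshold 0.05); SE is the log2 fold change over the square root of F. Replicates are slices, so in the fits of time or genotype alone p-values measure the spread between 2 mice a group. In the fits with slice as a block they measure how a difference within slices varied between slices. The step was tested on simulated data. It recovered 27% of 2-fold changes in the fibrotic fit over time and 18% in the deleter edge fit, where 7.26% of calls were false. The contrasts of edge with interior and of fibrotic with Col1a1-free spots chose the genes and were not tested for them. Time and genotype within edge or fibrotic spots were tested. Levels in those spots helped choose the genes, so these tests are not independent of that choice.

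The genes and lists were chosen with earlier results of these data known. Named genes are all 9, the 3 genes of each list with the largest change past the threshold, and each gene's 3 most alike; Zic1, Cldn11, Slc13a5, Xist and, in fibrotic spots over time, Slc26a2 were picked outside it, with their values known. One listed gene is not reported here. Alternatives were DESeq2 1.42.0, no filter, other edges, Col1a1 minimums of 2 and 10, only spots with at least 1000 UMIs, deleter slices added, interior fibrotic spots, the outer 10% in place of 25% of spots, and each slice left out. Leaving out choroid-marker-rich spots and small gaps was added after seeing the data. Gene spans are from GENCODE M21 on GRCm38, promoters from RefSeq.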

Additional observations from a re-analysis of the deposited data

Results flagged for a closer look

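The ratio of fibrotic to Col1a1-free level of Ptgds had an interaction with time, 21 against 7 dpi, of 1.07 on the log2 scale in the edgeR fit, where single slices had ratios of 1.97 and 2.54 (7 dpi) against 5.81 and 3.82 (WT, 21 dpi). Levels in these spots chose the gene, so the value is a description, and it does not test a difference between the times. With a Col1a1 minimum of 10 the slice ratios were 0.489 and 2.74 (7 dpi) against 6.60 and 2.47 (WT, 21 dpi).

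In interior spots the ratio of fibrotic to Col1a1-free level lay on opposite sides of 1 at the 2 times for 3 genes; this difference was not tested, since 1 slice at 7 dpi had such spots. For Ptgds the ratio was 0.501 at 7 dpi and 6.33 and 4.78 in the WT slices at 21 dpi. For Slc22a6 it was 0.581, from 3 UMIs, against 2.89 and 4.15. Its 95% counting interval at 7 dpi, 0.0969 to 2.54, included 1. For Alpl it was 0.834, from 8 UMIs, with an interval of 0.300 to 2.17 that included 1, against 3.03 (1.60 to 5.52) and 1.75 (0.600 to 5.22).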

How the results depend on the processing

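Counts of genes called moved by over 1.5 times as follows; causes were not tested. Edge, 7 against 21 dpi (63 genes): 126 by DESeq2, 831 with no filter, 40 with the array frame as edge, 33 with rings 1 and 2, 0 with deleter slices added (1144 at an unadjusted p under 0.05 by edgeR), 4 without choroid-marker-rich spots, 0 with small gaps not an edge (553 unadjusted), and 0 to 1681 with a slice left out (0 without WT slice 1 at 21 dpi, 527 unadjusted; 1681 without slice 2 at 7 dpi). Fibrotic, 7 against 21 dpi (503): 304 by DESeq2, 1122 with no filter, 187 at a Col1a1 minimum of 2, 987 with deleter slices, 319 in interior spots, 238 to 862 with a slice left out. Deleter against WT edges (305): 113 by DESeq2, 736 with no filter, 30 with the frame, 106 without choroid-marker-rich spots, 12 with small gaps not an edge, 261 to 738 with a slice left out. Edge against interior (3380): 462 with the frame, 2131 to 3970 with a slice left out. Interaction (569): 346 by DESeq2, 1435 with no filter, 364 at a minimum of 2, 57 to 819 with a slice left out. Endothelium (1566): 882 by DESeq2, 608 with the outer 10% of spots, 943 to 1751 with a slice left out. Of the 9 genes, those called moved at the edge over time from 0 to 3 with no filter and 0 to 8 with a slice left out; in fibrotic spots from 3 to 6 with no filter, 5 with deleter slices, and 2 to 7 with a slice left out; in deleter edges from 4 to 0 with the frame, 2 with rings 1 and 2, and 0 with small gaps not an edge; in the interaction from 1 to 2 with no filter, 0 at minimums of 2 and 10, and 0 to 1 with a slice left out; for myelin from 1 to 3 with no filter and 1 to 2 with a slice left out; for endothelium from 2 to 5 with no filter, 1 with the outer 10% of spots, and 1 to 2 with a slice left out. Foxc1 in the endothelium count and Ptgds in the interaction count were given above without a test, so both counts are a description. Some values turned sign. In fibrotic spots over time Myoc (0.04) was -0.0031 without choroid-marker-rich spots and -0.72 to 0.59 with a slice left out. In deleter edges Slc13a4 (-0.0034) was 0.021 by DESeq2, 0.85 without choroid-marker-rich spots, 0.48 with small gaps not an edge and -0.47 to 0.82 with a slice left out, Foxc1 (0.54) was -0.10 with small gaps not an edge, and Alpl was -0.39 to 0.22 with a slice left out. A group left with 1 slice was assumed to vary like the other. No paired analysis was possible because the labels give no replicate numbers shared between times or genotypes; comparisons within slices had the slice as a block. Depth limits the low genes: Slc22a6 had 607 UMIs and Foxc2 831 over all slices.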
